A study of Mus musculus with 2 samples.

Results

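Krt1, Krt10, Krt4, Krt13 and Krt12 are keratins that stratified epithelia make as their cells leave the basal layer. These 5 genes were listed by name, with no cut on a measured value but with earlier results of these data known. They come out of 29814 gene symbols found in both libraries and 53 keratin genes named by Krt and a number. Their levels were read across the 4 cell clusters named in the normal library and the 6 named in the wounded library, and their co-detection was read within normal Anal Canal cells and wounded Basal cells.

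Keratins build the intermediate filaments of epithelial cells from equal parts of a type I and a type II chain, so that they are made in pairs. Krt1 (type II) pairs with Krt10 (type I) in the suprabasal layers of the epidermis, where the pair replaces the basal keratins Krt5 and Krt14 as a cell differentiates. Krt4 (type II) and Krt13 (type I) are the matching pair of wet stratified linings such as the oesophagus and the oral cavity. Krt12 (type I) is best known from the corneal epithelium. The anal canal joins the skin to the single-layered, Krt8-rich epithelium of the rectum, through a transition zone (TZ) whose cells are marked by Krt17.

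Both libraries came from K17CreERT2;R26RGFP mice on the C57/BL6J background, in which tamoxifen-induced Cre under the Krt17 promoter switches on a green reporter in TZ cells. All mice had 2 tamoxifen injections, and the wounded mice were taken 1 week after hot EDTA and brushing had stripped the rectal crypts beside the TZ. Mice of both sexes were used, 2 to 4 months old at wounding and otherwise mostly 6 to 8 weeks old. Cells of at least 5 pooled mice were sorted on Epcam, an epithelial surface protein, against markers of blood, endothelium and fibroblasts. Each condition was sequenced as 1 library, so no value has a replicate check and no test between conditions was possible.

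The normal library held 939 named cells with a median of 9724 unique molecular identifiers (UMIs, counted RNA molecules), and the wounded library held 4147 named cells with a median of 10077 UMIs. No barcode was shared by the named cells of the 2 libraries. Levels are given per cluster, as the share of all its UMIs that belonged to the gene, on the counts-per-million scale (CPM). UMIs are counted once per molecule at the 3' end, so levels were not scaled to transcript length. Ranges in brackets are exact 95% intervals, which cover counting error only and not the spread between mice. Those of levels and ratios also leave out the spread between cells.

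Krt1 (ENSMUSG00000046834) lies at chr15:101845426-101850794 and Krt4 (ENSMUSG00000059668) at chr15:101918535-101924735, both on the minus strand of mm10 in the type II keratin cluster. Krt10 (ENSMUSG00000019761) at chr11:99385254-99389364 and Krt12 (ENSMUSG00000020912) at chr11:99415666-99422259 are neighbours on the minus strand of the type I cluster, with 26301 bases and no other protein-coding gene between them. Krt13 (ENSMUSG00000044041), at chr11:100117327-100121566 on the same strand, sits beside Krt15. Annotated genes on the opposite strand overlap Krt10 (Gm11940) and Krt12 (A830036E02Rik), and whether the counting separated strands is not given in the sources used here.

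Promoter windows were matched in RefSeq (GRCm38.p6) for 3 of the 5 genes, namely Krt10, Krt13 and Krt12. The 120 bases before their transcription starts are shown because genes of 3 different epithelia were high in the same clusters here. The windows are chr11:99389365-99389484 for Krt10, chr11:100121567-100121686 for the upstream start of Krt13 and chr11:99422260-99422379 for Krt12, written on the minus strand, and the capitals mark the letters ATAAANG.
Krt10: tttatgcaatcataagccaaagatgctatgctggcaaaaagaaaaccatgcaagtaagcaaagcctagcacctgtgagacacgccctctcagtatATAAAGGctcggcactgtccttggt
Krt13: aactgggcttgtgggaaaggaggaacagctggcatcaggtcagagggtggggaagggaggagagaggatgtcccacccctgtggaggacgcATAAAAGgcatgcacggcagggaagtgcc
Krt12: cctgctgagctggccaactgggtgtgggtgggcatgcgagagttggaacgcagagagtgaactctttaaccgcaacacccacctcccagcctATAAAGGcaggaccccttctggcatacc
This motif, which resembles the core promoter element known as the TATA box, began 25 bases before the start of Krt10, 29 before that of Krt13 and 28 before that of Krt12, and it was chosen after these sequences were read. It was found on either strand in 13% of all 32851 promoter windows of 300 bases, and between 15 and 45 bases before the start, on the gene's own strand, in 1.7%. The overlapping motif TATAAA was found in the windows of Krt10 and Krt12 and in 13.6% of all windows, and its letters are not in either window of Krt13. The letters TGANTCA, an AP-1 type motif that reads alike on both strands, were present in both Krt13 windows, in neither of the other 2 genes' windows and in 7.81% of all windows. CACCC, a Klf-type motif, was present in all 3 genes' windows and in 57.5% of all windows. A match describes the letters only.

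In the normal library all 5 keratins were at their highest level in the cluster named Anal Canal. This is partly how the cluster got its name, since the study recognised it by Krt10, and the cells were grouped on genes that include these keratins. The levels are therefore a description. They are drawn by cluster for both libraries in the plot of keratin levels.

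**Figure D1:**
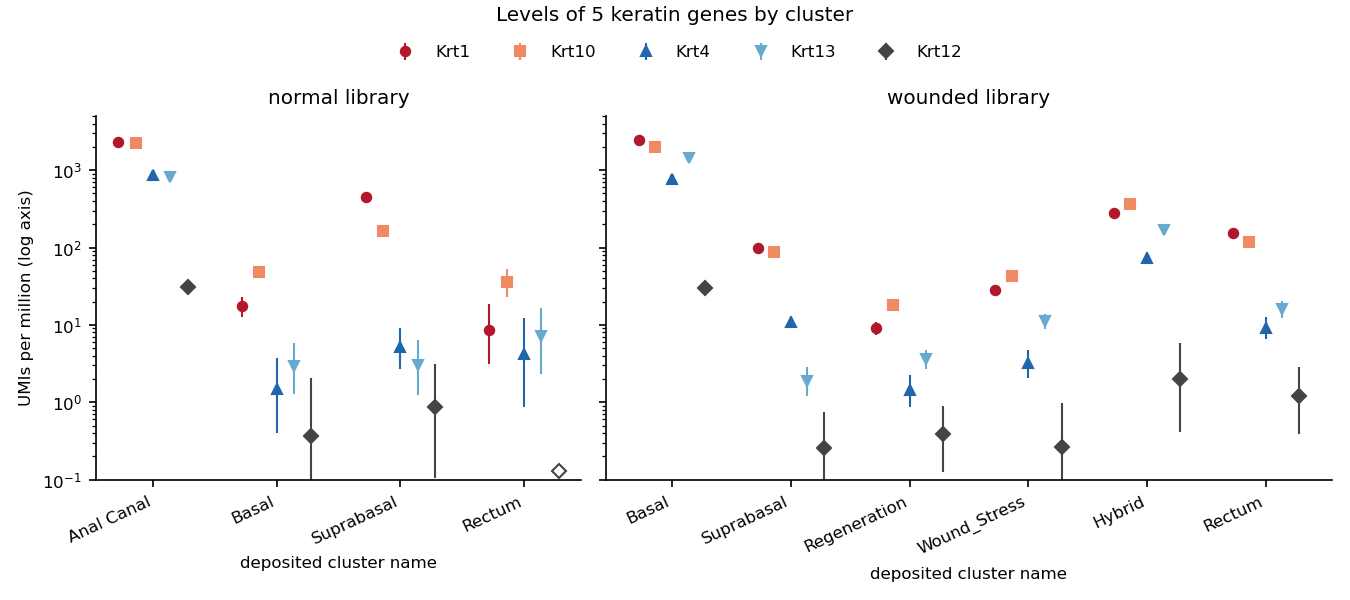
UMIs on the CPM scale (log axis) of 5 keratin genes in each named cluster of the normal library (left) and wounded library (right). Points are summed levels of 1 library, bars are exact 95% Poisson intervals cut at the lower edge of the axis, and the open point marks 0 UMIs of Krt12 in normal Rectum cells. All 5 genes peak in normal Anal Canal and in wounded Basal cells.

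Krt1 was at 2286 CPM (2241 to 2331) in normal Anal Canal cells, 448 in Suprabasal, 17.4 in Basal and 8.52 in Rectum cells. Its partner Krt10 was at 2228 CPM (2184 to 2273), 162, 48.4 and 35.5 in the same order. For both genes the last 2 levels did not differ beyond their intervals, while Anal Canal and Suprabasal stood clear of each other and of the rest. In summed UMIs the epidermal pair thus had a second, lower step in the Suprabasal cells, where 13 of 187 cells held 79.8% of the pair's UMIs.

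The mucosal pair had no such step. Krt4 was at 864 CPM (837 to 892) in Anal Canal cells and at 5.26 in Suprabasal, 4.26 in Rectum and 1.48 in Basal cells. Krt13 was at 812 CPM (785 to 839) in Anal Canal cells and at 7.10 in Rectum, 3.07 in Suprabasal and 2.96 in Basal cells. Below the Anal Canal, no neighbours in these orders differed beyond their intervals.

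Krt12 was the least abundant of the 5, at 30.8 CPM (25.8 to 36.5) from 135 UMIs in Anal Canal cells. It gave 2 UMIs in Suprabasal cells (0.876 CPM), 1 in Basal cells (0.370 CPM) and 0 in Rectum cells, where the upper bound is 5.24 CPM. These 3 levels could not be ordered.

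In the wounded library all 5 genes were highest in the cluster named Basal. Krt1 was at 2473 CPM (2433 to 2514) there, then at 279 in Hybrid, 153 in Rectum, 98.7 in Suprabasal, 28.0 in Wound_Stress and 9.07 in Regeneration cells. Krt10 followed the same order, from 1987 CPM (1951 to 2024) in Basal cells through 366, 118, 88.7 and 42.5 to 17.8. No neighbours in either order had overlapping intervals.

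Krt4 was at 756 CPM (734 to 779) in wounded Basal cells, 73.5 in Hybrid, 11.1 in Suprabasal, 9.24 in Rectum, 3.22 in Wound_Stress and 1.46 in Regeneration cells. Krt13 was at 1443 CPM (1412 to 1474) in Basal, 167 in Hybrid, 16.1 in Rectum, 11.3 in Wound_Stress, 3.61 in Regeneration and 1.90 in Suprabasal cells. Krt12 was at 30.3 CPM (26.0 to 35.2) in Basal cells and between 0.259 and 2.02 CPM elsewhere, where no neighbours differed beyond their intervals. For Krt4, Suprabasal overlapped Rectum and Wound_Stress overlapped Regeneration, and for Krt13, Rectum overlapped Wound_Stress and Regeneration overlapped Suprabasal.

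The names given to clusters did not line up between the libraries for these genes. In the wounded data the paper assigns a Krt10-enriched cluster to anal canal and suprabasal TZ cells, a name not among the deposited ones. Krt10 was at 48.4 CPM in the normal cells named Basal and at 1987 in the wounded cells named Basal, Krt1 at 17.4 and 2473, Krt4 at 1.48 and 756, Krt13 at 2.96 and 1443, and Krt12 at 0.370 and 30.3. Over the 11462 genes other than the 5, the levels of wounded Basal cells correlated best with those of normal Anal Canal cells (r = 0.944) and less with normal Basal cells (r = 0.880), as a description over genes that are not independent. Normal Basal cells were closest to wounded Regeneration cells (r = 0.920), nearly level with wounded Suprabasal cells (r = 0.917). The basal markers are present under each of these names: Krt14 was at 5400 CPM in normal Basal, 11880 in normal Anal Canal and 8434 in wounded Basal cells, Krt5 at 2123, 3829 and 2770, and Col17a1 at 176, 283 and 248. The TZ marker Krt17 was at 2265, 704 and 381 CPM in these, and higher in Suprabasal cells, at 9389 and 7100. The deposited names are kept below, and normal Anal Canal and wounded Basal cells are set side by side as the clusters where the 5 keratins are high.

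Every member was 4-fold or more higher in these clusters than in the other clusters of its library, as were 2.37% of 11403 genes in normal Anal Canal and 2.96% of 14236 genes in wounded Basal cells. No member was 4-fold or more lower, as 6.3% and 6.95% of those genes were. As the clusters were made from these genes, nothing follows from the count. The log2 ratio in the normal library was 8.02 (7.37 to 8.75) for Krt4, 7.85 (7.22 to 8.57) for Krt13, 5.87 (4.29 to 8.17) for Krt12, with only 3 UMIs in the other clusters, 4.59 (4.46 to 4.72) for Krt10 and 3.60 (3.51 to 3.69) for Krt1. In the wounded library it was 6.86 (6.73 to 6.999) for Krt13, 6.48 (6.32 to 6.65) for Krt4, 5.99 (5.28 to 6.77) for Krt12, 5.21 (5.15 to 5.27) for Krt1 and 4.84 (4.78 to 4.91) for Krt10. The mucosal keratins were thus the more restricted to 1 cluster, and the epidermal keratins the more abundant.

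The share of cells with a UMI was compared after each cell was thinned to 2000 UMIs, which left out 35 shallower Anal Canal cells and 9 wounded Basal cells. Among 397 Anal Canal cells, Krt1 was found in 44.8% (39.9 to 49.9), Krt4 in 41.1% (36.2 to 46.1), Krt10 in 34.5% (29.8 to 39.4), Krt13 in 25.7% (21.5 to 30.3) and Krt12 in 5.54% (3.51 to 8.27). Without thinning these shares were 61.6%, 56.3%, 55.6%, 38.2% and 16.7%. Neighbours in this order had overlapping intervals down to Krt13, and Krt12 stood below them.

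Rectum cells, a columnar type in which these keratins are not known to be made, were taken as the measure of background. In 60 normal Rectum cells Krt10 was found in 8.33% (2.76 to 18.4), Krt13 in 3.33%, Krt1 in 1.67% and Krt4 and Krt12 in 0 of 60, which allows a share of up to 5% by the floor of 3 counts (exact upper bound 5.96%). In the normal Basal cells, with a median of 9971 UMIs against 10885 in Rectum cells, Krt10 was found in 9.41% (6.12 to 13.7) and Krt1 in 2.35%, neither above the Rectum share beyond the intervals. The part of free RNA was not measured. In the normal Suprabasal cells Krt1 was found in 14.8% (9.95 to 20.7) and Krt10 in 12.6% (8.14 to 18.3), the first above the Rectum share of 1.67% (0.0422 to 8.94) and the second not above it beyond the intervals.

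Among 564 wounded Basal cells, Krt1 was found in 49.1% (44.9 to 53.3), Krt10 in 34.8% (30.8 to 38.8), Krt4 in 32.4% (28.6 to 36.5), Krt13 in 29.96% (26.2 to 33.9) and Krt12 in 4.61% (3.03 to 6.68). The wounded Rectum shares were 1.98%, 3.39%, 1.13% and 1.13% for the first 4 genes, and 0 of 354 for Krt12, which allows up to 0.847% by the same floor (exact upper bound 1.04%). Krt10 in Regeneration (3.55%) and Wound_Stress cells (4.16%) was at that background, while in Suprabasal cells it was found in 7.25% (5.74 to 9.02), an interval that overlaps the Rectum interval of 1.76 to 5.85.

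Each keratin's UMIs came from few cells. In normal Anal Canal, 15 of 432 cells held 50% of all Krt10 UMIs, and the top 15, 18 and 12 cells did so for Krt1, Krt4 and Krt13. The highest cell had 683 Krt10 UMIs, while the median cell had 1. Among wounded Basal cells, 26 of 573 held 50% of the Krt10 UMIs, 33 those of Krt1, 23 those of Krt4 and 17 those of Krt13, and the highest cell had 679 Krt13 UMIs where the median was 0. A cluster's level is thus mostly a reading of a small, keratin-rich group.

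**Figure D2:**
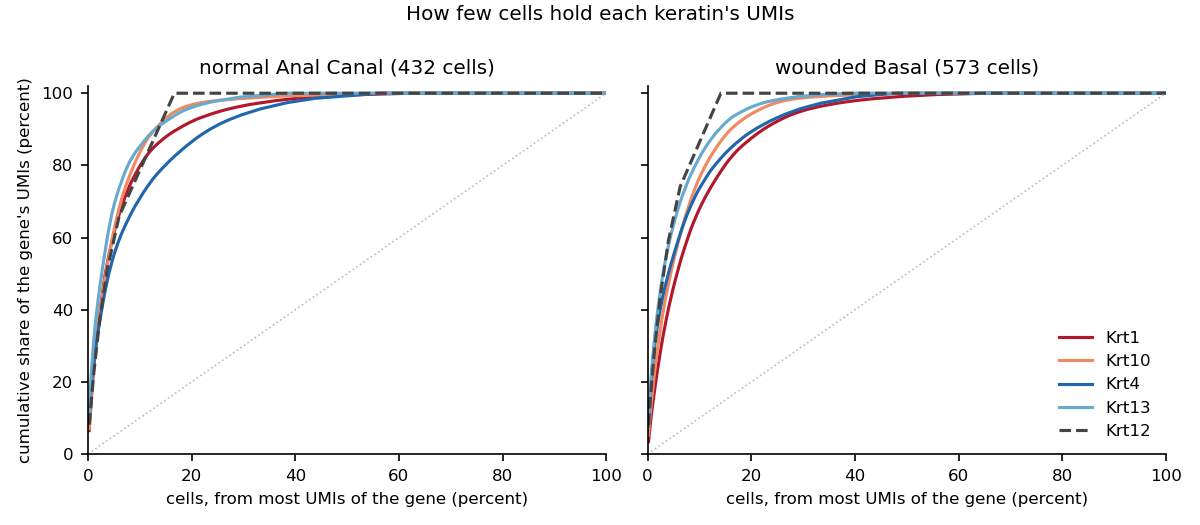
Cumulative share of each keratin's UMIs (vertical, percent) over cells ranked from most to fewest UMIs of that gene (horizontal, percent of cells), in 432 normal Anal Canal and 573 wounded Basal cells. The dotted line is an even spread. Every curve rises steeply, with 50% of the UMIs reached within 3.47% of normal cells for Krt10 and 2.97% of wounded cells for Krt13.

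Cells rich in a pair were counted as those with 20 or more of its UMIs, without thinning. Of the Anal Canal cells, 101 of 432 were rich in Krt1 and Krt10 and held 94.9% of that pair's UMIs, and 65 were rich in Krt4 and Krt13 and held 83.9%. For wounded Basal cells these counts were 172 of 573 (95.8% of the pair's UMIs) and 113 (90.3%). The balance within the epidermal pair varied widely between cells, with a median Krt10 share of 49.7% (quartiles 27.3 and 62.1) in normal and 44.3% (22.8 and 55.7) in wounded cells. Within the mucosal pair the median Krt13 share was 49.1% (quartiles 34.8 and 65.6) in normal and 73.2% (54.1 and 85.7) in wounded cells. With 1 library each, and Cell Ranger versions that differ in the file headers, wounding, pool and processing cannot be told apart.

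Pair-rich cells outside these clusters were few. The normal Suprabasal step came from 13 cells that held 79.8% of the cluster's Krt1 and Krt10 UMIs, and 1 cell held 438 of its 1023 Krt1 UMIs. Without that cell Krt1 was at 256 CPM, and without the highest Krt10 cell Krt10 was at 120 CPM. These cells were rich in Krt1 more than in Krt10, with a median Krt10 share of 17.5%, and 4 of the 13 were among the 6% of cells with the highest Scrublet score, a measure of likeness to simulated doublets (2 cells in 1 droplet). Without all such high-scoring cells the Suprabasal level was 444 CPM for Krt1 and 146 for Krt10. The 16 such cells in wounded Suprabasal also had a low median Krt10 share, of 18.2%, and 2 of them had a high Scrublet score. In that cluster 1 cell held 66 of the 128 Krt4 UMIs.

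In wounded Rectum cells, 4 cells held 92.3% of the Krt1 and Krt10 UMIs, and 3 of the 4 had a high Scrublet score. In Wound_Stress cells 3 cells held 56.3% and all 3 had a high score. Without the high-scoring cells Krt1 dropped from 153 to 10.6 CPM in Rectum and from 28.0 to 10.1 CPM in Wound_Stress cells, and Krt10 from 118 to 19.5 and from 42.5 to 20.9 CPM. Krt13 dropped from 11.3 to 0.846 CPM in Wound_Stress cells, where 1 cell held 77 of its 84 UMIs, and from 16.1 to 10.9 CPM in Rectum cells. Without them Rectum cells fell below Suprabasal cells for Krt1 (99.8 CPM there) and Krt10 (86.5 CPM), and Wound_Stress fell below Regeneration cells for Krt13 (1.16 CPM).

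The Hybrid cells came next in the wounded order. Of 316 cells, 9 were rich in the epidermal pair, holding 46.3% of its UMIs, and 1 was rich in the mucosal pair, but a count of 20 UMIs is harder to reach here, since their median depth was 2390 UMIs against 9075 in Basal cells. The top 10% of Hybrid cells held 79.0% of the Krt1 UMIs, where the share in Basal cells was 68.4%. Of the Hybrid cells, 132 were too shallow to thin. After thinning, Krt1 was found in 26.1% (19.9 to 33.1) of 184 Hybrid cells, Krt10 in 23.4%, Krt13 in 17.9% and Krt4 in 14.7%. These cells also held summed markers of the rectum at 1417 CPM, against 157 to 287 CPM in the other stratified wounded clusters, of endothelium at 87.0 CPM and of smooth muscle at 103 CPM. The part of these in the keratin levels was not tested.

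Within cells, the partners of each pair went together. In normal Anal Canal, Krt10 was found in 52.2% (44.6 to 59.8) of the 178 thinned cells with Krt1 and in 20.1% (14.99 to 26.0) of those without it. Krt13 was found in 43.6% (35.8 to 51.5) of the 163 cells with Krt4 and in 13.2% (9.18 to 18.3) of those without it. The same shares in wounded Basal cells were 56.3% (50.3 to 62.2) against 13.9% (10.1 to 18.5) for Krt10, and 59.0% (51.5 to 66.2) against 16.0% (12.5 to 20.1) for Krt13. In all 4 cases the intervals were apart. Over cells, Pearson's r of ln(1 + UMIs) was 0.76 in 397 normal and 0.77 in 564 wounded cells for Krt1 with Krt10, and 0.68 and 0.67 for Krt4 with Krt13. Cells of 1 library share its depth and its free RNA, so these are descriptions.

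**Figure D3:**
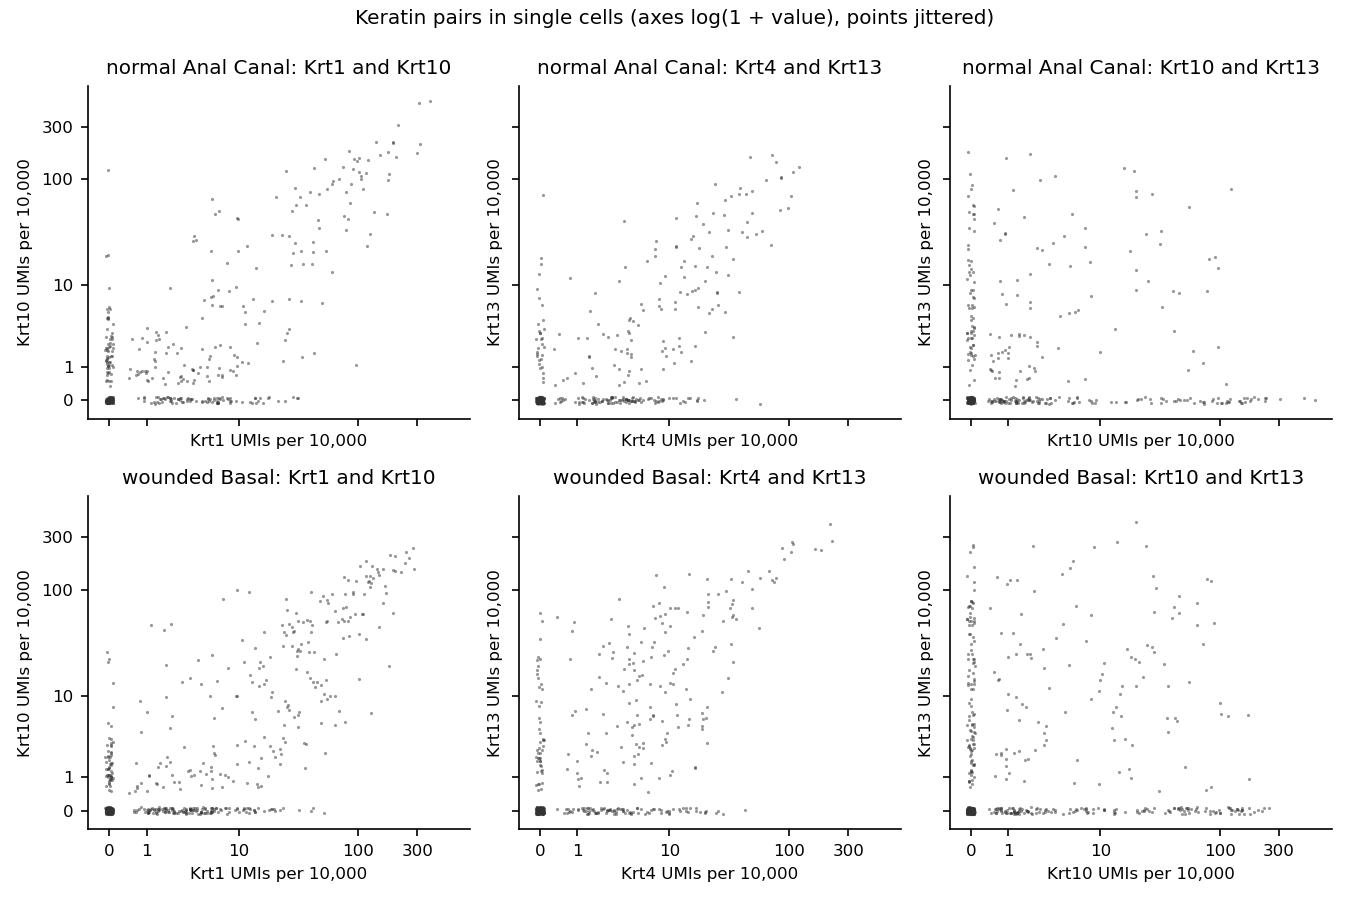
Keratin UMIs per 10000 UMIs in single cells (each point 1 cell, both axes on a log(1 + value) scale with slight jitter) of normal Anal Canal (top) and wounded Basal (bottom). Krt1 with Krt10 and Krt4 with Krt13 lie along a diagonal, with r over thinned cells of 0.76 and 0.68 in the normal library, while Krt10 with Krt13 (r = -0.03 in the normal and 0.03 in the wounded library) spreads along both axes.

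Across the pairs the relation differed by gene. Krt4 was found in 42.7% of Anal Canal cells with Krt1 and in 39.7% of those without, and Krt13 in 26.3% of cells with Krt10 and 25.4% of those without, all with overlapping intervals. Krt13 was the less frequent in cells with Krt1, at 18.5% (13.1 to 25.04) against 31.5% (25.4 to 38.1). In wounded Basal cells Krt4 went with both epidermal keratins: it was found in 52.6% (45.3 to 59.7) of cells with Krt10 against 21.7% (17.6 to 26.3) without it, and in 39.7% (33.9 to 45.7) of cells with Krt1 against 25.4% (20.5 to 30.9). Krt13 did not differ there beyond the intervals, at 34.2% with and 27.7% without Krt10. In normal Anal Canal cells Krt4 was found in 46.0% (37.4 to 54.7) of cells with Krt10 and 38.5% (32.5 to 44.7) of those without. The share of Krt4 in cells with Krt10 thus overlapped between the libraries. In cells without Krt10 it was lower in the wounded library. Over cells, r of Krt10 with Krt4 was 0.28 in the wounded and 0.06 in the normal library. With 1 library each, wounding, pool and processing cannot be told apart.

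Grouped by pair, the thinned Anal Canal cells fell into 113 with Krt1 or Krt10 only, 85 with Krt4 or Krt13 only, 109 with both pairs and 90 with neither. The wounded Basal cells fell into 160, 87, 157 and 160. Epidermal-only and both-pair cells had like shares, at 28.5% and 27.5% in normal and 28.4% and 27.8% in wounded cells. The mucosal-only class was 21.4% (17.5 to 25.8) in normal and 15.4% (12.5 to 18.7) in wounded cells, with intervals that overlap. A pair of keratins was thus no exclusive label of a cell: of 222 normal cells with Krt1 or Krt10, 49.1% also had Krt4 or Krt13, as did 48.6% of the 175 without. In the wounded library these were 49.5% (43.9 to 55.2) of 317 and 35.2% (29.3 to 41.5) of 247. The share with both pairs moved with depth and threshold: at 4000 UMIs it was 42.5% in normal and 36.3% in wounded cells, and with 2 UMIs of a pair required it was 11.8% and 16.8%. Counted as pair-rich cells without thinning, 26.7% (18.4 to 36.5) of 101 normal cells rich in the epidermal pair were rich in the mucosal pair, against 11.5% (8.25 to 15.4) of the other 331. The cells rich in the epidermal pair were the deeper, with a median of 12831 UMIs against 8437.5 in the whole cluster, and the part of depth was not tested. The same shares in the wounded library were 33.7% (26.7 to 41.3) of 172 and 13.7% (10.5 to 17.5) of 401. Among cells with both pairs, 11 of 109 normal and 5 of 157 wounded cells had a high Scrublet score, and their median depth before thinning was 10877 and 10804 UMIs, the highest of the classes in each library. A high score was as frequent in normal epidermal-only cells, at 12 of 113, and was found in 11 of 160 wounded ones. It was found in 1 of 85 and 3 of 87 mucosal-only cells, and in 4 of 90 and 7 of 160 with neither pair.

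**Figure D4:**
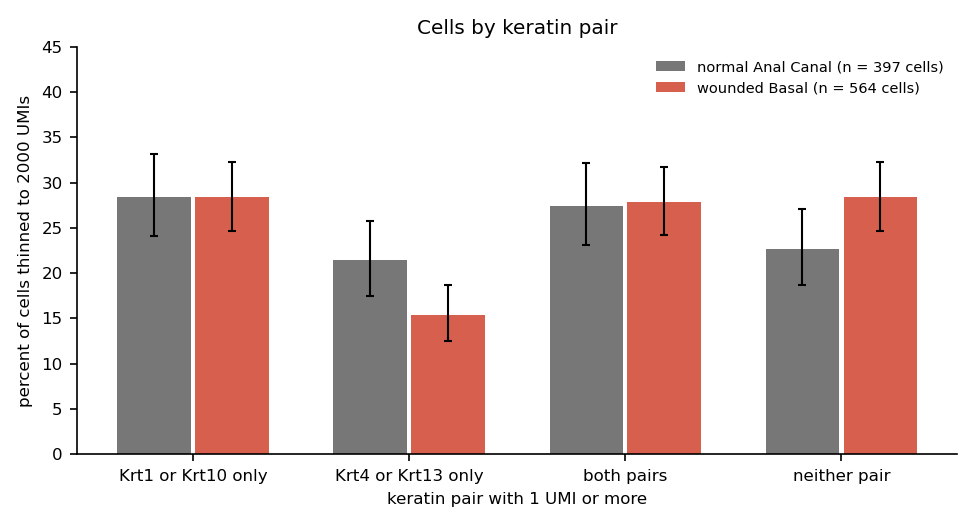
Percent of cells (vertical), each thinned to 2000 UMIs, with 1 UMI or more of Krt1 or Krt10 only, of Krt4 or Krt13 only, of both pairs or of neither, in 397 normal Anal Canal (grey) and 564 wounded Basal cells (red). Bars are shares and lines exact 95% Clopper-Pearson intervals, which overlap between the libraries in every class.

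The classes were cut from the keratins themselves, and other genes also differed between them. Those given here were picked after their values were seen. For Asprv1 and Sbsn (suprabasin) the normal classes could not be ordered. Asprv1 was at 31.0 CPM (12.5 to 63.8) in epidermal-only and 0 UMIs (upper bound 21.7 CPM) in mucosal-only normal cells. Sbsn was at 124 (82.3 to 179) and 106 CPM (62.8 to 167), and both pairs of intervals overlap. In wounded epidermal-only and mucosal-only cells Asprv1 was at 43.8 and 92.0 CPM, and Sbsn at 159 and 224 CPM, and no order is read from these values. Flg (filaggrin), of the epidermal list, was at 97.7 CPM in wounded mucosal-only cells, from 3 cells, and at 0 UMIs in epidermal-only cells. Cells with the mucosal pair only held more of Mal, a lipid-raft protein of oesophageal epithelium, at 229 CPM (163 to 314) against 4.42 (0.112 to 24.7) in normal cells with the epidermal pair only. Wounded cells had Mal at 1454 CPM against 0 UMIs (upper bound 11.5 CPM). Cnfn, the cornified envelope protein cornifelin, was at 782 against 8.85 CPM in the normal and 1029 against 0 (upper bound 11.5) in the wounded library. Crnn (cornulin), a late protein of wet stratified epithelium, was at 58.8 against 0 UMIs (upper bound 16.3 CPM) and at 126 against 3.13 CPM. These levels came from few cells: of the 85 normal mucosal-only cells Mal was found in 12, Cnfn in 7 and Crnn in 2, and of the 87 wounded ones in 27, 16 and 11.

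Ecm1, an extracellular matrix protein, stood at 871 CPM in normal mucosal-only and 66.4 in epidermal-only cells, and at 2655 and 31.3 CPM in wounded cells. Emp1, an epithelial membrane protein, was at 765 against 279 CPM and 920 against 116 CPM. Spink5, the inhibitor of epidermal kallikreins, was at 435 against 84.1 CPM and 649 against 75 CPM. Of the mucosal list, Tgm3, a transglutaminase, went the other way, at 23.5 CPM (6.41 to 60.2) in mucosal-only and 199 (145 to 266) in epidermal-only normal cells, and at 28.7 and 181 CPM in wounded cells. Of the epidermal list, Tgm1 and the calmodulin-like Calml3 were higher in mucosal-only cells, Tgm1 at 118 against 8.85 CPM in normal and 51.7 against 6.25 CPM in wounded cells, and Calml3 at 159 against 26.5 CPM and 253 against 31.3 CPM.

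The stress keratins and Krt15 were also higher in mucosal-only cells. Krt6a was at 3076 CPM in mucosal-only and 332 in epidermal-only normal cells, and at 2385 and 84.4 CPM in wounded cells. Krt6b, a near-identical copy whose UMIs may be split uncertainly from those of Krt6a, was at 588 against 8.85 CPM and 506 against 6.25 CPM. Krt16, their type I partner, was at 929 against 97.3 CPM and 379 against 43.8 CPM. Krt15, a keratin of basal and stem cells, was at 4700 against 1053 CPM in normal and 2339 against 909 CPM in wounded cells. The other basal keratins were lower in mucosal-only cells: Krt14 was at 10577 CPM (10093 to 11077) against 12027 (11579 to 12487) in normal and 6414 (6043 to 6801) against 9047 (8720 to 9383) in wounded cells. Krt5 was at 3965 against 4513 CPM and 2661 against 2950 CPM, with overlapping intervals.

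Cells with the epidermal pair only held more of Krtdap, a keratinocyte differentiation peptide, at 4425 against 2059 CPM in normal and 2981 against 1109 CPM in wounded cells. Dmkn (dermokine) was at 1142 against 406 CPM and 963 against 621 CPM. Dsg1a, a desmosomal cadherin of the upper epidermis, was at 57.5 (30.6 to 98.4) against 11.8 CPM (1.42 to 42.5) in normal cells, where the intervals overlap. In wounded cells Dsg1a was at 59.4 (35.7 to 92.7) against 0 UMIs (upper bound 21.2 CPM). Maf, a transcription factor of keratinocyte differentiation, was at 48.7 CPM against 0 UMIs (upper bound 21.7 CPM) and at 81.3 against 11.5 CPM. Lor (loricrin), which marks the cornified layer, gave 0 UMIs in epidermal-only cells of both libraries, with upper bounds of 16.3 and 11.5 CPM. In the normal library the reporter transcript ZsGreen1 was found in 1 of 113 epidermal-only, 1 of 109 both-pair and 1 of 90 neither-pair cells, too few to order the classes.

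**Figure D5:**
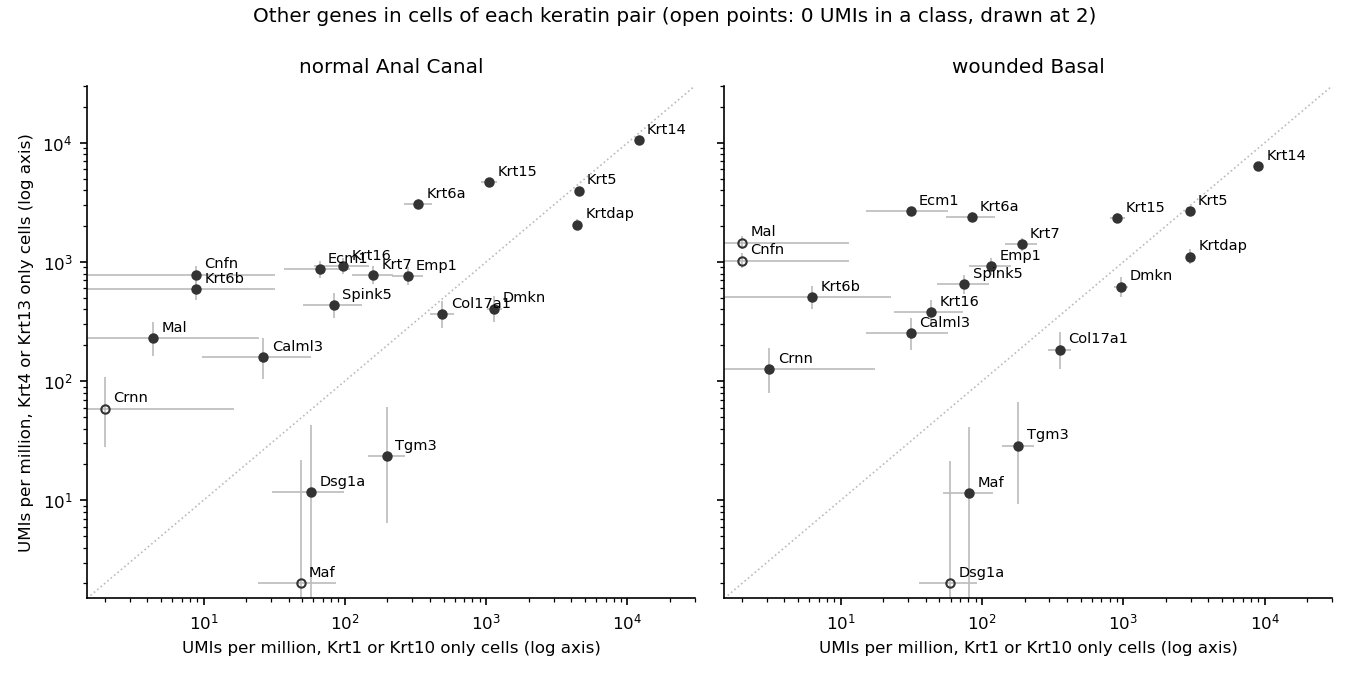
Level of other genes (CPM, log axes) in cells with Krt1 or Krt10 only (horizontal) against cells with Krt4 or Krt13 only (vertical), in normal Anal Canal and wounded Basal cells thinned to 2000 UMIs. Lines are exact 95% Poisson intervals cut at the axes, open points had 0 UMIs in 1 class and are drawn at 2, and the dotted line marks equal levels. Mal, Cnfn, Ecm1 and Krt6a lie far above the line and Tgm3, Dsg1a and Maf below it in both panels.

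Col17a1, a hemidesmosome collagen of basal cells, was at 600 CPM (492 to 724) in normal and 422 (354 to 499) in wounded cells with neither pair, and at 491 (404 to 591) and 356 (294 to 428) in epidermal-only cells, which overlap. Cells with both pairs were below these classes, at 206 CPM (151 to 276) and 115 (80.3 to 159). Mucosal-only cells were at 365 CPM (280 to 468) in the normal library, which overlaps the epidermal-only class. In the wounded library they were at 184 CPM (126 to 260), below the epidermal-only class and overlapping cells with both pairs. Over cells, Krt5 and Krt15 were among the 5 genes with the most negative r with Krt1 and with Krt10 in both libraries, from -0.35 to -0.52.

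Krt12 was found in cells of either pair. In normal Anal Canal cells it was at 39.8 CPM (18.2 to 75.6) in epidermal-only, 17.6 (3.64 to 51.6) in mucosal-only and 50.5 (25.2 to 90.3) in both-pair cells, and gave 0 UMIs (upper bound 20.5 CPM) in cells with neither. In wounded Basal cells it was at 12.5 (3.41 to 32.0), 51.7 (23.7 to 98.2), 47.8 (26.7 to 78.8) and 6.25 (0.757 to 22.6) CPM. In wounded cells Krt12 was found in 10.7% (6.44 to 16.3) of cells with Krt13 and 2.03% (0.878 to 3.95) of those without. In normal cells these shares were 7.84% (3.45 to 14.9) and 4.75% (2.62 to 7.83), which overlap. With Krt1, Krt10 or Krt4 in place of Krt13 the intervals overlapped in both libraries. For Krt1 the shares were 8.99% (5.23 to 14.2) with and 2.74% (1.01 to 5.87) without it in normal cells, and 3.61% and 5.57% in wounded cells.

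Lists of genes set beside the pairs were read as the log2 ratio of normal Anal Canal or wounded Basal cells over the other clusters. A cluster holds cells of both pairs, so a ratio does not tie a gene to 1 pair. Of 13 measured epidermal differentiation genes in the normal library, 2 were at 4-fold or more higher and 2 at 4-fold or more lower, with a median of 0.08 beside 0.04 over all genes. Tgm1, the transglutaminase of the cornified envelope, was at 3.67 (3.15 to 4.23), Krt77 at 3.44 and the protease Asprv1 at 1.80. In the wounded library 3 of 14 were higher and 1 lower, with a median of 0.85 beside -0.03, led by Asprv1 at 4.21 (3.84 to 4.60), Tgm1 at 2.93 and Krt77 at 2.32. Of all genes, 2.37% in normal Anal Canal and 2.96% in wounded Basal cells were 4-fold or more higher, and 6.3% and 6.95% lower. The other clusters pool Suprabasal cells with the rest. In the normal library Krtdap was at 3797 CPM in Anal Canal, 183 in Basal, 21.3 in Rectum and 8756 in Suprabasal cells. Its ratio over this pool was 0.08. Lor was at 5.48, 1.11, 14.2 and 0.438 CPM in the same order. A ratio over the pool thus does not tell whether a gene was higher than in Basal cells alone. Most of the epidermal list did not reach 4-fold over the pooled clusters. Its share of higher genes was still above that of all genes, from small counts. Of those that did, Tgm1 was higher in mucosal-only than in epidermal-only cells of both libraries, as given above.

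More of the mucosal list reached 4-fold. In the normal library 6 of 8 measured genes were at 4-fold or more higher and none lower, with a median of 3.12. Cnfn was at 6.20 (5.47 to 7.04), Mal at 6.04 (4.90 to 7.49) and Crnn, with 46 UMIs against 0, at 4.32 with the floor of 3 UMIs in place of 0 (exact lower limit 3.96). For wounded Basal cells 8 of 10 were higher and none lower, with a median of 3.97, led by Cnfn at 6.32, Mal at 6.16 and Crnn at 5.70. All genes reached 4-fold higher in 2.37% and 2.96% of cases. Tgm3, counted here at 2.95 in the normal and 2.94 in the wounded library, was the higher in epidermal-only cells, as given above.

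Of 16 regulators of differentiation, none was 4-fold higher or lower in normal Anal Canal cells, beside 2.37% and 6.3% of all genes. The highest ratios were those of the grainyhead factor Grhl3 at 1.78 (1.26 to 2.33), Maf at 1.39 and Prdm1 at 0.49 with an interval that includes 0. Cebpb had the lowest, at -1.998 (-2.12 to -1.87), just short of 4-fold. In wounded Basal cells 2 of 16 were 4-fold or more higher and 1 lower, beside 2.96% and 6.95% of all genes. Grhl3 was at 2.35 (1.73 to 2.96) there, Maf at 1.81 and Cebpb at -2.59. Of the corneal genes set beside Krt12, Aldh3a1, an aldehyde dehydrogenase of the cornea, was at 0.36 in normal and -0.53 in wounded cells, and Pax6, the eye master regulator, had 0 UMIs against 40 in wounded cells. Pax6 had too few UMIs for a ratio in the normal library.

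Of the other keratins, 6 of 19 measured were at 4-fold or more higher and 5 lower in normal Anal Canal cells, beside 2.37% and 6.3% of all genes, led by Krt6b at 4.86, Krt7 at 3.46 and Krt77 at 3.44. Among wounded Basal cells 8 of 30 were higher and 5 lower, beside 2.96% and 6.95% of all genes, led by Krt6b at 6.44, Krt78 at 4.23 and Krt23 at 3.28. The 8 included Krt71 at 2.76 and Krt25 at 2.28, keratins of the hair's inner root sheath, which were named after their values were seen. Other keratins of this sheath did not reach 4-fold: Krt27 was at 1.91, Krt28 at -0.12 (-0.44 to 0.18) and Krt73 at -0.50 (-1.18 to 0.11). Summed hair follicle markers were at 33.3 CPM in normal Anal Canal and 39.7 in wounded Basal cells, against 65.3 to 160 and 114 to 245 CPM in the other clusters. That list (Lhx2, Lgr5, Tbx1, Sox9 and Krt75) holds none of these sheath keratins. The study had also filtered the normal cells on Lgr5, Lhx2 and Tbx1. The normal sums were thus partly set by that filter and do not measure hair follicle content.

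The genes whose levels were most like each member's over the 10 clusters were picked by Pearson's r of log2(CPM + 10) among 11466 genes. As only 2 of the 10 points are high, r says mainly that a gene peaked in both. For Krt1 these were Krt10 (0.96), the cystatin Csta1, the protease inhibitor Serpinb3a, Tmem154 and the arginase Arg1, with the last at 0.94. For Krt10 they were the arginine deiminase Padi4 (0.98), Csta1, Lypd6b, the serine protease Tmprss11b and Krt1. For Krt4 they were Sptssb (0.99), Padi4, Tmprss11a, the cytokine Il1f9 and the ligand Wnt3, and for Krt13 Lypd2 (0.99), podoplanin (Pdpn), Serpinb12, Krt4 and Fmo2. For Krt12 they were Tmprss11d (1.00), Cnfn, thrombomodulin (Thbd), Prss22 and Tmprss11a. On this scale r of Krt12 was 0.96 with Krt4, 0.93 with Krt13, 0.91 with Krt10 and 0.84 with Krt1.

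Over single cells the 2 pairs had different companions. Krt1 and Krt10 shared the fatty acid binding protein Fabp5 and the calmodulin-like Calm4 among their 5 closest genes in both libraries, with r of 0.72 and 0.65 for Krt10 in 397 normal cells and 0.66 and 0.71 in 564 wounded cells. Krt4 and Krt13 shared Krt6a in both libraries, with r of 0.69 for Krt13 in normal and 0.75 in wounded cells. Sprr1a, a cornified envelope precursor, and Gsto1, a glutathione transferase, were with both in normal cells, and Spink5 and Gsta4 in wounded cells. The gene closest to Krt1 was Krt10, that closest to Krt10 was Krt1, and that closest to Krt4 was Krt13, in both libraries. For Krt13 it was Krt6a in both, ahead of Krt4 (0.68 in normal and 0.67 in wounded cells).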

How the data were processed

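Single-cell RNA-seq was measured in 1 normal and 1 wounded library. UMI counts of each gene in each barcode were deposited by the authors, not normalized, from Cell Ranger and mm10. The file headers name version 3.1.0 for the normal and 4.0.0 for the wounded library, where the labels name 3.1.0 for both. They also deposited tables of the natural log (ln) of 1 plus a whole number per gene and cell, with Seurat 3.2.2, holding the cells left after filters of 200 to 5000 genes and under 25% mitochondrial UMIs and after removal of anal gland, hair follicle and fibroblast clusters. Cells and names came from these tables, and levels from the counts. For the normal library the study had also filtered cells on Lgr5, Lhx2 and Tbx1, to take out hair follicle cells. The 5 genes, the lists and the alternatives were chosen with earlier results of these data known.

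UMIs were summed per cluster and divided by the summed UMIs. Levels have exact Poisson, log2 ratios exact binomial and shares Clopper-Pearson intervals at 95%. Genes with 20 or more UMIs were given a ratio, 0 was replaced by 3 UMIs, and 4-fold or more was counted. For shares, each cell was thinned to 2000 UMIs, leaving out 44 normal and 221 wounded cells. No test was made, since cells of 1 library are not replicates. Scrublet in scanpy 1.11.5 called 2 and 0 doublets, so its calls were not used and doublets were kept. The 6% of cells with the highest scores were left out as an alternative. Other alternatives were the mean of per-cell CPM, median-of-ratios size factors, the deposited whole numbers, other depths and other minimums. Genes named are the 5, the 5 most alike to each, and of each list the 3 with the largest ratio. One gene that this rule names is not reported here. Other genes named within the cell classes come from the same lists and markers, and were picked after their values were seen. Gene positions are those of GENCODE M21 (mm10), and promoter sequences those of RefSeq. The script for ratios and intervals was first tested on simulated data. Python 3.11.15, numpy 2.4.6 and scipy 1.17.1 were used.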

Additional observations from a re-analysis of the deposited data

Results flagged for a closer look

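Barcodes outside the deposited tables, which no comparison above used, also held UMIs of these keratins, above the 3 UMIs that a count of 0 allows. In 1625 normal barcodes there were 2279 UMIs of Krt1, 3092 of Krt10, 99 of Krt4 and 81 of Krt13. In 13069 wounded barcodes there were 2658 of Krt1, 2498 of Krt10, 650 of Krt4, 883 of Krt13 and 40 of Krt12.

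A single normal barcode held 2499 of the Krt10 UMIs and 1897 of the Krt1 UMIs, and none of Krt4, Krt13 or Krt12. It had 61125 UMIs and 5568 detected genes, above the limit of 5000 genes of the stated filter, and 2.88% mitochondrial UMIs. Krtdap (2081 UMIs), Lgals7 (2209), Calm4 (1818) and Fabp5 (928) were among its most abundant genes. In the wounded library 1 barcode with 5237 genes held 582 Krt10 and 457 Krt1 UMIs. Among wounded barcodes that pass the stated filter but are not in the table, 1 held 99 of 133 Krt4 UMIs and 213 of 289 Krt13 UMIs. Of the wounded Krt1 UMIs outside the table, 1715 were in 11900 barcodes with 25% or more mitochondrial UMIs.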

How the results depend on the processing

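No paired analysis was possible because each condition is 1 library. Each member's ratio kept its sign and stayed at 4-fold or more under every alternative run. The order of lower clusters did not always hold: without the cells of highest Scrublet score, wounded Rectum fell below Suprabasal cells for Krt1 and Krt10. With the mean of per-cell CPM, Krt13 (7.36) came above Krt4 in normal Anal Canal cells. Size factors moved all ratios by -0.05 (normal) and -0.03 (wounded) on the log2 scale. With the mean of per-cell CPM, the log2 ratio was 7.26 for Krt4 in normal Anal Canal, and 4.51 for Krt1, 3.92 for Krt10, 5.26 for Krt4, 5.49 for Krt13 and 5.05 for Krt12 in wounded Basal cells. Without the cells of highest Scrublet score it was 3.70 for Krt1 and 4.78 for Krt10 in normal cells, and 5.78 for Krt1, 5.36 for Krt10, 6.75 for Krt4 and 7.48 for Krt13 in wounded cells. With the deposited whole numbers it was 4.44 for Krt10 in normal cells, and 5.03 for Krt1, 4.49 for Krt10, 6.08 for Krt4 and 6.32 for Krt13 in wounded cells. The cause of these shifts was not tested. In normal Anal Canal cells without thinning, Krt10 was in 67.3% of cells with Krt1 and Krt13 in 55.1% of cells with Krt4, and with 2 UMIs required Krt13 was in 52.6%. Genes 4-fold or more higher in normal Anal Canal numbered 270 with 20 UMIs, 122 with 100 and 451 with 1 UMI. The count lower, 718 with 20 UMIs, was 271 with 100 UMIs. The count higher in wounded Basal cells, 422 with 20 UMIs, was 215 with 100 and 4165 with 1 UMI. The 4165 cannot be read as genes higher in Basal cells. With so low a minimum, the floor given to a gene without UMIs in Basal cells can by itself reach 4-fold. Levels without the highest cell of a gene, an alternative chosen after seeing the data, moved in 28 of the 50 cases. Depth limits Krt12 outside the high clusters and the shallow Hybrid cells, and 1 library a condition limits every contrast of normal and wounded.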
